A study of Mus musculus with 32 samples.

Results

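The genes described are the 6 that make up the mouse IgG Fc receptor system: the activating receptors Fcgr1, Fcgr3 and Fcgr4, the inhibitory receptor Fcgr2b, the signalling chain Fcer1g and the neonatal Fc receptor Fcgrt. They were taken by symbol, as the rows of the 3 deposited gene tables whose Ensembl identifiers carry these names, and all 6 were present among the 74021, 74016 and 74021 rows of the tables and passed the filter on low counts in each. The study asked what LAG-3, an immune checkpoint receptor, does in microglia of SOD1G93A mice, a transgenic model of amyotrophic lateral sclerosis that carries mutant human SOD1. In the sorting experiment, CD11b+/CD45int cells were taken from lumbar spinal cord of P140 SOD1G93A mice and divided by surface LAG-3 into LAG-3-low (n = 5 libraries) and LAG-3-high (n = 5), with cells of non-transgenic WT mice (n = 4) sorted beside them. In the stage experiment the same kind of cells came from SOD1G93A mice that were LAG-3+/+ or carried the LAG-3-/- deletion, at P120 and at P140 (n = 3 for each of the 4 groups). Whole lumbar spinal cord of SOD1G93A mice of either LAG-3 genotype was sequenced at P140 (n = 3 each). The Lag3 deletion was germline, so it was not limited to microglia, and every stage and cord library carried the SOD1G93A transgene. The labels do not state whether a LAG-3-high library and the like-numbered LAG-3-low library share a mouse. The cells had been blocked with an antibody to CD16/CD32, the products of Fcgr3 and Fcgr2b, before surface staining.

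Receptors for the Fc part of IgG tell a phagocyte whether a target is coated with antibody. The activating receptors pair with the FcR gamma chain encoded by Fcer1g, whose cytoplasmic ITAM is phosphorylated on its tyrosines by Src family kinases and recruits Syk, which leads to phagocytosis and cytokine release. Fcgr2b carries an ITIM in its own tail, recruits the phosphatase SHIP1 (Inpp5d) and dampens that signal, and FcRn, a pair of Fcgrt and B2m, binds IgG inside endosomes and returns it to the cell surface. Microglia are the main cells of the central nervous system that express the receptors.

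Of the genes, 4 lie close together on chromosome 1 of GRCm39: Fcgr2b (ENSMUSG00000026656) at chr1:170786186-170804177 on the minus strand, Fcgr4 (ENSMUSG00000059089) at chr1:170846466-170857330 on the plus strand, Fcgr3 (ENSMUSG00000059498) at chr1:170878738-170893549 and Fcer1g (ENSMUSG00000058715) at chr1:171057141-171062219, both on the minus strand. Fcgr1 (ENSMUSG00000015947) is at chr3:96190225-96201338 and Fcgrt (ENSMUSG00000003420) at chr7:44742412-44756819, both on the minus strand. The coding bases of the signalling motifs are shown because they set the activating chain apart from the inhibitory receptor. The tyrosine codons are in capitals, and both are read 5′ to 3′ from the canonical transcripts of GENCODE vM39. The Fcer1g stretch runs from exon 4 into exon 5 (chr1:171057458-171057641, minus strand) and has 2 tyrosine codons, while the Fcgr2b stretch lies in exon 7 (chr1:170788640-170788657, minus strand) and has 1.
Fcer1g ITAM: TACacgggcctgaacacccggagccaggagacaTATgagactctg
Fcgr2b ITIM: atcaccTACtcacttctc

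Fcgr2b and Fcgr3 resemble each other outside these tails, which bears on how reads can be divided between them. Their coding sequences share an identical run of 129 bases across exons 3 and 4, at chr1:170794243-170795650 in Fcgr2b and chr1:170881736-170885361 in Fcgr3. Of all 31-base windows in the annotated transcripts, 235 were common to both genes, 4.06% of those of Fcgr2b and 7.12% of those of Fcgr3, and no other pair among the 6 shared any. A read pair that lies wholly within such shared sequence fits both genes, so part of the counts of Fcgr2b and Fcgr3 may be divided between them by estimate, and how many reads this concerned was not measured. Windows shared with genes other than the 6 made up 1.61% of those of Fcgr2b, 3.21% of Fcgr3, 1.25% of Fcgr4 and 1.02% of Fcgrt, and 0% of those of Fcgr1 and Fcer1g.
Fcgr2b and Fcgr3 shared run: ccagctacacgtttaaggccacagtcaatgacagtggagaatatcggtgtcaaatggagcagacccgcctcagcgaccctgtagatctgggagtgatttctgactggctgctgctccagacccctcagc

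The bases just upstream of the start are shown for the 4 receptors, and no link between the motifs in them and the levels was tested. They are from RefSeq promoters of GRCm38.p6, where all 6 genes matched, and each is the last 120 bases before the start of transcription, written along the gene. Capitals mark matches on either strand to 4 of 6 spelled motifs searched in 250 bases: GAGGAA, the core of PU.1 sites; TTCNNNGAA, the GAS element; an ISRE-type motif, 2 GAAA units in the same direction and 2 bases apart; and an EICE-type motif, the same with GGAA as the first unit. GAGGAA was found in Fcgr1, Fcgr3 and Fcgr4 and occurred in 23.3% of 32851 promoters. TTCNNNGAA was found in Fcgr1 (7.02% of promoters), the ISRE type in Fcgr4 (2.98%) and the EICE type in Fcgr2b (2.3%). No match to TCACGTG (3.13%) or TGANTCA (6.75%) was found in any of the 6, and Fcer1g and Fcgrt had no match to any motif in this window.
Fcgr1, chr3:96293970-96294089, minus strand: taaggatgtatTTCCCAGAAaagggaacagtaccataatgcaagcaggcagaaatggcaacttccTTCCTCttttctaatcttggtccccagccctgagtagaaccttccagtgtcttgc
Fcgr3, chr1:171059395-171059514, minus strand: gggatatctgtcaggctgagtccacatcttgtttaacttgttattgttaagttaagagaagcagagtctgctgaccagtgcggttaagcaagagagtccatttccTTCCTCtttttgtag
Fcgr4, chr1:171018806-171018925, plus strand: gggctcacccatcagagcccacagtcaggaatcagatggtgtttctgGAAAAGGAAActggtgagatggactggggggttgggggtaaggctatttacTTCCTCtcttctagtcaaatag
Fcgr2b, chr1:170976072-170976191, minus strand: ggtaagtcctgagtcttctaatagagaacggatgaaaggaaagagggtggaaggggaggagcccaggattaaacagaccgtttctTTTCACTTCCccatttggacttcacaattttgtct

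Levels are given as CPM, counts scaled to a library of 1000000 after edgeR's TMM normalization, and totals ranged from 9403475 to 22850586 counts in the sorting, 23981406 to 49512632 in the stage and 19430102 to 26994524 in the cord tables. Lag3 followed the labels, at 4.61 ± 4.60, 43.5 ± 8.72 and 169 ± 18.0 CPM (SD) for WT, low and high sorts in that order, and at 0.0239 to 0.462 CPM in LAG-3-/- against 24.5 to 62.9 CPM in LAG-3+/+ microglia. The 8 microglia markers summed to at least 15624 CPM in every sorted library. The 10 neutrophil markers summed to 5917 to 70471.5 CPM in WT and 22071 to 63230 CPM in LAG-3-low libraries, but to 1.41 to 7.14 CPM in LAG-3-high libraries, where Elane was at 0 throughout and all 10 had been detected in both other groups. In the stage table they summed to 1630 to 2474 CPM in P120 LAG-3+/+, 2.76 to 4.55 in P120 LAG-3-/-, 3.92 to 3393 in P140 LAG-3+/+ and 4.02 to 4404 CPM in P140 LAG-3-/- libraries. Neutrophils also express Fcgr3, Fcgr4 and Fcer1g.

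Compared per length, as CPM per kb of median transcript length, Fcer1g and Fcgr3 were among the most abundant transcripts of microglia and Fcgr4 was the scarcest receptor. Fcer1g ranked between 19 and 45 and Fcgr3 between 34 and 88 among all genes in the 26 microglia libraries, while Fcgr4 ranked between 2122 and 9523. Of the summed level of the 4 receptors per kb, Fcgr3 held 75.8% ± 3.97 (SD, n = 4) in WT microglia, Fcgr1 17.1% ± 4.91, Fcgr2b 6.60% ± 1.31 and Fcgr4 0.464% ± 0.341. The order Fcgr3, Fcgr1, Fcgr2b, Fcgr4 held for the mean shares of all 7 microglia groups. With the longest transcript in place of the median length, Fcgr2b moved above Fcgr1 in 6 of these groups, and in WT microglia the shares were 8.43% ± 1.51 and 9.58% ± 3.0, so the order of these neighbours is set by the length used.

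Surface LAG-3 was compared first within the SOD1G93A mice. Fcgr3, the low-affinity activating receptor CD16 and the most abundant of the 4, was at 1143, 930, 968, 938 and 1093 CPM in the LAG-3-low libraries and at 1921, 1845, 1790, 1434 and 1640 CPM in the LAG-3-high libraries. The lowest LAG-3-high value lay above the highest LAG-3-low value. The log2 fold change was 0.77 (SE 0.17, 95% interval 0.40 to 1.13, edgeR quasi-likelihood test, adjusted p = 0.0229 by the Benjamini-Hochberg method across the 16508 genes tested). It passed the adjusted p, as did 4.39% of all genes, but not the additional minimum of an absolute log2 fold change of 1 that the study's methods set for this comparison. With both criteria 0 of the 6 genes were called, against 3.49% of all genes (2.67% lower and 0.818% higher in LAG-3-high). In edgeR 3 of the 6 had an unadjusted p under 0.05, as had 1988 of 16508 genes tested. In DESeq2 2 of the 6 had, as had 2551 of 16107 genes, and DESeq2 also called 0 of the 6.

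Fcgr1 encodes CD64, the high-affinity IgG receptor, and was at 134, 106, 139, 121 and 125 CPM in LAG-3-low and at 204, 144, 200, 209 and 184 CPM in LAG-3-high libraries. Fcer1g, the gamma chain, was at 1040, 1130, 1115, 1015 and 1064 CPM in LAG-3-low and at 1930, 1903, 1772, 1500 and 1710 CPM in LAG-3-high libraries. Fcgr4, the activating receptor for IgG2a and IgG2b complexes, was at 12.8, 16.4, 23.3, 20.1 and 16.1 CPM against 27.7, 27.1, 44.6, 27.1 and 39.8 CPM. None of these groups overlapped either, so 4 of the 6 genes were higher in every LAG-3-high than in every LAG-3-low library, where 8.95% of all genes were. The fitted differences did not pass the test: log2 0.59 for Fcgr1 (adjusted p = 0.353), 0.72 for Fcer1g (0.418) and 0.91 for Fcgr4 (0.633), all from edgeR. The widely spread WT libraries shared the estimate of the spread in this fit. With only the compared groups fitted, 5 of the 6 genes had an unadjusted p under 0.05 in edgeR, as had 4463 of 14651 genes tested. None of the 6 was called there either.

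The inhibitory Fcgr2b was at 248 to 355 CPM in LAG-3-low (median 305) and 344 to 472 CPM in LAG-3-high libraries (median 432), with overlap (log2 0.43, 95% interval 0.08 to 0.78, edgeR adjusted p = 0.254). Fcgrt, the IgG-binding chain of FcRn, was at 55.4 to 91.3 CPM and 64.4 to 103.5 CPM (log2 0.16, 95% interval -0.43 to 0.75, edgeR adjusted p = 0.945). Without the TMM factors the Fcgrt difference turned to -0.22. The median log2 fold change of the 6 genes was 0.65 against -0.024 for all genes tested, and without TMM factors the 2 medians were 0.28 and -0.40. The Fcgr2b share of the 4 receptors per kb was 10.1% ± 0.914 in LAG-3-low and 8.30% ± 1.04 (SD, n = 5 each) in LAG-3-high microglia, and the ranges of 8.87 to 11.0% and 6.85 to 9.71% overlapped. The microglia markers also summed to less in LAG-3-low (15624 to 23134 CPM) than in LAG-3-high libraries (23026 to 25269 CPM). As a percentage of that sum Fcgr3 was at 4.60 to 6.96% and 6.23 to 7.67%, and Fcer1g at 4.60 to 7.23% and 6.51 to 7.73%, so on this scale both overlapped. The neutrophil markers, present in each LAG-3-low library and near 0 in each LAG-3-high library, moved in the opposite direction to these genes, and their part in the differences was not tested. Fewer receptor-expressing cells and less receptor RNA per cell cannot be told apart in such pooled cells.

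**Figure D1:**
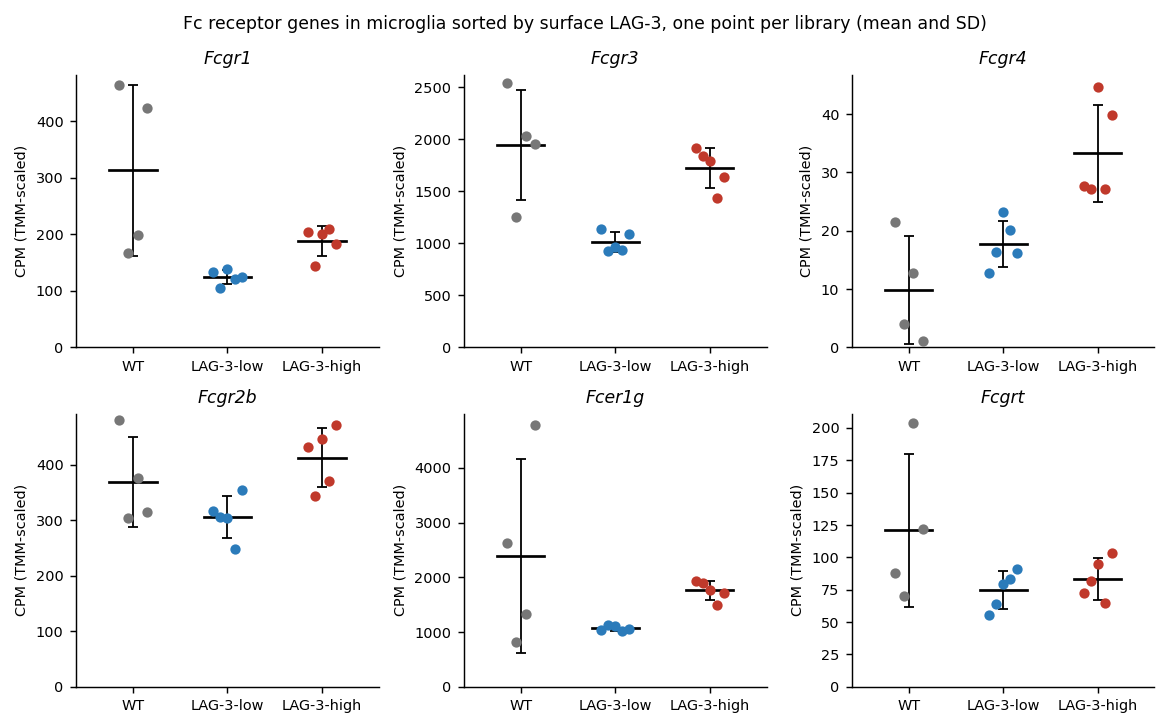
Levels of the 6 genes in CPM (TMM-scaled, linear axes from 0) in WT (n = 4), LAG-3-low (n = 5) and LAG-3-high (n = 5) microglia; each point is 1 library, the thick line the mean and the bar the SD. Fcgr1, Fcgr3, Fcgr4 and Fcer1g separate LAG-3-high from LAG-3-low without overlap, while the WT libraries spread widely, as for Fcer1g at 812 to 4779 CPM.

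Against WT microglia the LAG-3-low cells held less Fcgr1 and Fcer1g on the CPM scale. Fcgr1 was at 463, 167, 199 and 423 CPM in the WT libraries, all above the LAG-3-low maximum of 139 CPM, and it fell by 1.33 on the log2 scale (SE 0.27, edgeR adjusted p = 0.00576). Fcer1g was at 2624, 812, 1337 and 4779 CPM in WT, so that WT 2 lay below all 5 LAG-3-low libraries, and it fell by 1.15 (SE 0.35, edgeR adjusted p = 0.0396). Thus 2 of the 6 genes were called lower in LAG-3-low, against 11% of all genes (21.9% called in either direction). The microglia markers also summed to more in WT (29336 to 35794 CPM) than in LAG-3-low libraries (15624 to 23134 CPM). As a percentage of that sum Fcgr1 was at 0.488 to 1.58% in WT and 0.540 to 0.817% in LAG-3-low libraries. Fcer1g was at 2.37 to 15.8% and 4.60 to 7.23%, so on this scale both overlapped. The Fcer1g call rested on WT 4, the library with the highest summed neutrophil markers of the table at 70471.5 CPM. Without it the log2 fold change was -0.57 (edgeR adjusted p = 0.160). The call was also lost with library totals (-0.96, under the fold minimum), without the filter on low counts (edgeR adjusted p = 0.110), with the replicate block (0.162) and with only these 2 groups fitted (0.150).

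Fcgr3 was at 2542, 1250, 2032 and 1956 CPM in WT, above every LAG-3-low library, and had log2 -0.94 (SE 0.18, edgeR adjusted p = 0.00393), under the fold minimum although past the adjusted p, as 24.9% of all genes were. Without WT 2, the WT library with the lowest Fcgr3 level, it was -1.09. Groups did not overlap in CPM, with LAG-3-low lower, for Fcgr1 and Fcgr3 and for 5.95% of all genes (9.78% with LAG-3-low higher). As a percentage of the summed microglia markers Fcgr3 overlapped, at 3.65 to 8.67% in WT and 4.60 to 6.96% in LAG-3-low libraries. Fcgr2b (log2 -0.27), Fcgrt (-0.70) and Fcgr4 (0.84) did not pass, with edgeR adjusted p between 0.115 and 0.376. Without WT 1 the Fcgr4 value became 1.66 (edgeR adjusted p = 0.0798).

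LAG-3-high was then set against WT, with Fcgr4 given first. Its WT levels were 21.5, 4.10, 12.8 and 1.08 CPM, the last resting on 17 counts, and all were below the LAG-3-high minimum of 27.1 CPM. It was called higher, by 1.75 on the log2 scale (SE 0.64, 95% interval 0.39 to 3.11, edgeR adjusted p = 0.0636), and it was the only one of the 6 called, against 27% of all genes in either direction, 12.1% higher and 14.9% lower. Groups did not overlap with LAG-3-high higher for 12.4% of all genes. The call was lost without WT 2 (edgeR adjusted p = 0.103), LAG-3-high 3 (0.122) or LAG-3-high 5 (0.113), and with library totals in place of TMM the value was 1.43 (0.121). Fcgr1 had log2 -0.74 (edgeR adjusted p = 0.0666), past the adjusted p like 30.3% of all genes but under the fold minimum, and Fcgr3, Fcer1g, Fcgrt and Fcgr2b ranged from -0.54 to 0.16 with adjusted p of at least 0.205. The Fcgr2b difference of 0.16 turned to -0.13 without TMM factors, and the Fcer1g value of -0.44 turned to 0.16 without WT 4.

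Differences from WT also moved with transcript length. Among genes with a median transcript under 1 kb the median log2 fold change was -0.96 in LAG-3-high and -0.68 in LAG-3-low microglia, and over 4 kb it was 0.26 and 0.29. The median transcript is 861 bases long for Fcer1g, 1033 for Fcgr1, 1151.5 for Fcgr4, 1502 for Fcgr3, 1809 for Fcgrt and 3365 for Fcgr2b. With a correction for length and GC content, LAG-3-low against WT gave 5 of the 6 genes called lower, where 27.6% of all genes were, Fcgr2b among them at -1.37 (edgeR adjusted p = 0.00241). LAG-3-high against WT gave Fcgrt called lower at -1.52 (0.00436), as 25.9% of all genes were, and Fcgr4 called higher, as 8.21% were. Fcgr2b in LAG-3-high microglia turned from 0.16 to -0.81 under the same correction. It moved the median of all genes as well, from 0.036 to -0.71 in LAG-3-low and from -0.082 to -0.65 in LAG-3-high microglia, and the median of the 6 genes from -0.82 to -1.58 and from -0.31 to -0.74.

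Disease stage was compared within each genotype. In SOD1G93A/LAG-3+/+ microglia 5 of the 6 genes rose from P120 to P140, where 11.9% of all genes were called higher and 27.4% in either direction. Fcgr3 had the largest fold change of the 6 without a correction for transcript length, from 1119, 1178 and 1124 CPM at P120 to 2614, 3776 and 3559 CPM at P140 (log2 fold change 1.54, SE 0.33, edgeR adjusted p = 0.0116). Fcer1g went from 1490, 1232 and 1209 CPM to 2554, 3703 and 3253 CPM (log2 1.27, SE 0.28, edgeR adjusted p = 0.0121). The activating chain and its most abundant partner receptor were therefore higher in each P140 than in each P120 library.

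The inhibitory Fcgr2b rose as well, from 322, 284 and 284 CPM to 686, 799 and 639 CPM (log2 1.26, SE 0.24, edgeR adjusted p = 0.00792). Fcgr1 went from 145, 204 and 183 CPM to 315, 353 and 415 CPM (log2 1.02, SE 0.30, edgeR adjusted p = 0.0342), and Fcgrt from 64.7, 82.5 and 62.8 CPM to 93.3, 142 and 176 CPM (log2 0.97, SE 0.34, adjusted p = 0.0682). Fcgr4, at 21.9, 17.6 and 8.99 CPM and then 23.3, 33.7 and 43.2 CPM, did not pass (log2 1.05, 95% interval -0.16 to 2.25, edgeR adjusted p = 0.209). In all 6 genes the P140 libraries lay above the P120 libraries, as in 16.8% of all genes (25.4% lay below), and the median log2 fold change was 1.15 against -0.22 for all genes tested.

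The proportions of the receptors were compared as well. Fcgr2b made up 8.55% ± 0.909 of the 4 receptors per kb at P120 and 7.64% ± 1.33 at P140 (SD, n = 3 each), and the ranges of 7.80 to 9.56% and 6.33 to 8.98% overlapped. The Fcgr3 share was 73.5% ± 0.956 and 78.7% ± 1.92, without overlap.

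Several measures moved with stage in these libraries. The 8 microglia markers summed to 25515 to 28778 CPM at P120 and 34126 to 41101 CPM at P140. As a percentage of that sum Fcgr3 was at 4.09 to 4.38% and then 7.66 to 10.6%, Fcer1g at 4.28 to 5.84% and then 7.49 to 10.4%, Fcgr2b at 0.985 to 1.26% and then 1.55 to 2.25%, and Fcgr1 at 0.570 to 0.708% and then 0.922 to 1.01%. These 4 genes did not overlap on this scale either, while Fcgrt and Fcgr4 did. The 8 markers of monocytes and border macrophages, cells that also express these receptors, summed to 10.1 to 19.9 CPM (Mrc1 at 0 throughout) and then 109 to 149 CPM (Cd163 at 0 throughout), and their part in the rise was not tested. Genes with transcripts over 4 kb had a median log2 fold change of -1.24 and those of 1 to 2 kb one of 0.39. With the correction for length and GC content 5 of the 6 genes were again called higher, where 19% of all genes were, at 1.16 for Fcgr1, 2.29 for Fcgr2b, 1.55 for Fcgr3, 1.46 for Fcer1g and 1.09 for Fcgrt, beside a median of all genes that moved to 0.39. Fcgrt and Fcgr1 were the calls lost elsewhere. The Fcgrt call was lost with each library left out other than P140 1, with an adjusted p of 0.114 without P120 2, 0.187 without P120 3 and 0.144 without P140 2. Without P120 1 they were at 0.91 and 0.90 (edgeR adjusted p = 0.180 and 0.123), without P140 3 at 0.75 and 0.91 (0.215 and 0.106), and with library totals in place of TMM, where the median of all genes was -0.70, at 0.46 and 0.52.

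**Figure D2:**
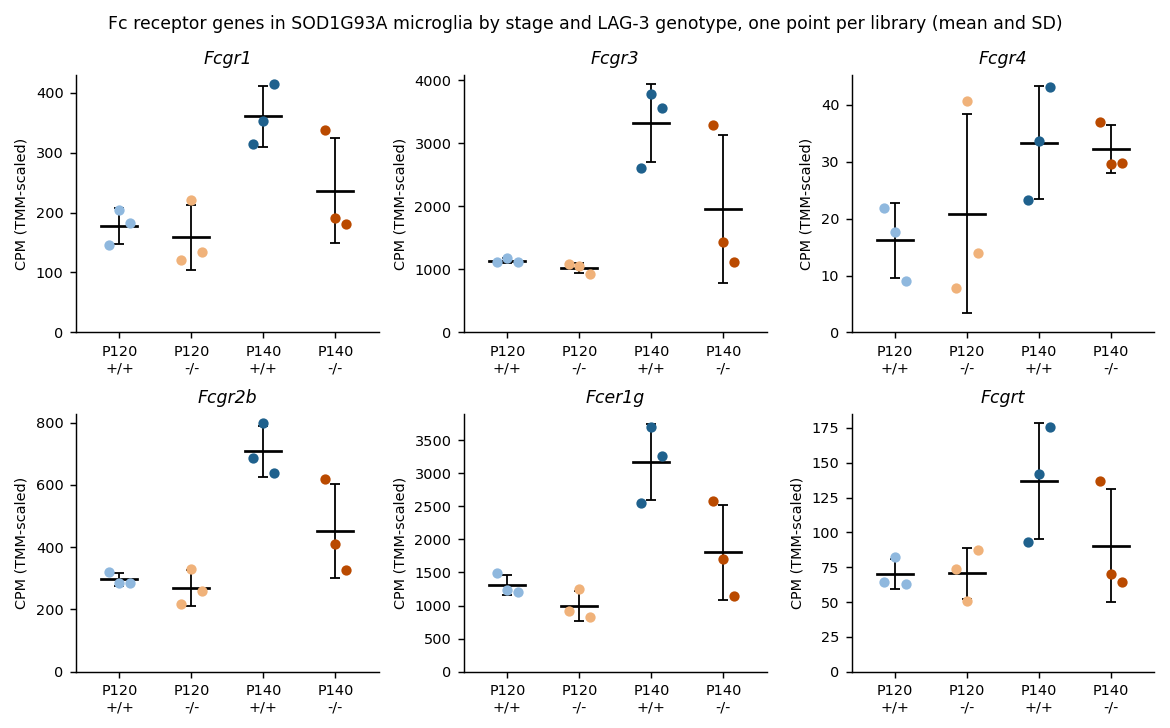
Levels of the 6 genes in CPM (TMM-scaled, linear axes from 0) in SOD1G93A microglia at P120 and P140 with LAG-3+/+ or LAG-3-/- (n = 3 per group); points are libraries, thick lines means and bars SDs. The P140 LAG-3+/+ points lie above the P120 LAG-3+/+ points in all 6 genes, and 1 of the 3 P140 LAG-3-/- libraries lies apart from the other 2, for Fcgr3 at 3297 CPM.

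In SOD1G93A/LAG-3-/- microglia 0 of the 6 genes were called between the same stages, and neither was any other gene (0% of 18669 tested; 1658 genes and 3 of the 6 had an unadjusted p under 0.05 in edgeR, and DESeq2 called 449 genes, none of them among the 6). Fcgr3 was at 1084, 1058 and 929 CPM at P120 and at 3297, 1435 and 1124 CPM at P140 (log2 0.93, SE 0.33, edgeR adjusted p = 0.504), the only one of the 6 without overlap, where 7.39% of all genes were higher and 7.37% lower without overlap. Fcer1g was at 911, 1244 and 827 CPM and then 2573, 1700 and 1151 CPM (log2 0.86, edgeR adjusted p = 0.475). Fcgr2b was at 219, 331 and 258 CPM and then 619, 409 and 325 CPM (log2 0.74, edgeR adjusted p = 0.475). The remaining 3 ranged from 0.36 for Fcgrt to 0.63 for Fcgr4.

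The difference between the genotypes in their change with stage was tested by the interaction term. Its values were negative for all 6 genes, from -0.61 for Fcgrt and Fcgr3 to -0.41 for Fcer1g, but none was called (edgeR adjusted p of at least 0.526, against 0.171% of all genes called; 0 of the 6 had an unadjusted p under 0.05 in edgeR and 0 were called by DESeq2). The direction of the Fcgr4 value turned to 0.52 without P120 LAG-3-/- 2. The 95% interval for Fcgr3 ran from -1.63 to 0.41.

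Within the stages, the LAG-3 deletion was compared directly. At P120 all 6 differences were small, from -0.40 for Fcer1g to 0.37 for Fcgr4, each with an edgeR adjusted p of 1, and 0 of the 6 genes were called (0.0107% of all genes; 0 of the 6 had an unadjusted p under 0.05, and DESeq2 called 0 of the 6). Fcgr3 was the only one in which the LAG-3-/- libraries all lay below the LAG-3+/+ libraries, as 6.63% of all genes did (4.85% lay above). Fcgr4 was spread most, at 7.81, 40.7 and 14.04 CPM in LAG-3-/-, and its value turned to -0.57 without the library at 40.7 CPM. The P120 Fcgrt difference of 0.013 changed sign with several libraries left out.

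At P140 all 6 values were below 0 and 0 of the 6 were called, against 10.2% of all genes (7.22% higher and 3% lower in LAG-3-/-). The log2 fold changes were -0.81 for Fcer1g (SE 0.28, edgeR adjusted p = 0.114), -0.76 for Fcgr3 (SE 0.33, 0.186), -0.65 for Fcgr2b (SE 0.24, 0.131), -0.61 for Fcgr1 (0.232) and -0.60 for Fcgrt (0.301). Fcgr4 had -0.054 (adjusted p = 0.970), which turned to 0.27 without TMM factors. Of the 6, Fcgr2b alone had no overlap, at 686, 799 and 639 CPM in LAG-3+/+ and 619, 409 and 325 CPM in LAG-3-/- libraries, where 8.92% of all genes were lower without overlap. In edgeR 3 had an unadjusted p under 0.05. By p, Fcer1g ranked 2272, Fcgr2b 2731 and Fcgr3 4008 among the 18669 genes tested. DESeq2 called the same 3, among 4281 genes that it called in all. With the correction for length and GC content only Fcgr2b was called lower, at -1.31 (edgeR adjusted p = 0.0970), as 3.61% of all genes were.

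The P140 values depended on the library P140 LAG-3-/- 1. It held 3297 CPM of Fcgr3, against 1435 and 1124 CPM in the other 2, within the range of the LAG-3+/+ group, and likewise 338 CPM of Fcgr1 against 192 and 180 CPM and 137 CPM of Fcgrt against 70.2 and 64.2 CPM. In this library 20260 genes had at least 1 count, against 23896 and 23459 in the other 2 and 18896 to 20489 in the P140 LAG-3+/+ libraries, and its TMM factor of 0.848 was also nearer to theirs (0.734 to 0.855) than to 0.980 and 1.12. Without it 5 of the 6 genes were called lower in LAG-3-/-, namely Fcgr3 at -1.37 (edgeR adjusted p = 0.00151), Fcer1g at -1.15 (0.0132), Fcgrt at -1.03 (0.0522), Fcgr1 at -0.95 (0.0415) and Fcgr2b at -0.94 (0.0129), and the interaction was called for Fcgr3 (-1.21, 0.0235). Over all genes the same omission raised the share called from 10.2% to 20.2% (8.29% lower) at P140 and from 0.171% to 8.35% for the interaction. Without P140 LAG-3+/+ 1, only Fcer1g was called lower, at -0.94 (0.0916). The microglia markers summed to 37816 CPM in P140 LAG-3-/- 1, to 25567 and 24516 CPM in the other 2 and to at least 34126 CPM in LAG-3+/+. As a percentage of that sum Fcgr2b was at 1.33 to 1.64% in LAG-3-/- and 1.55 to 2.25% in LAG-3+/+ libraries.

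**Figure D3:**
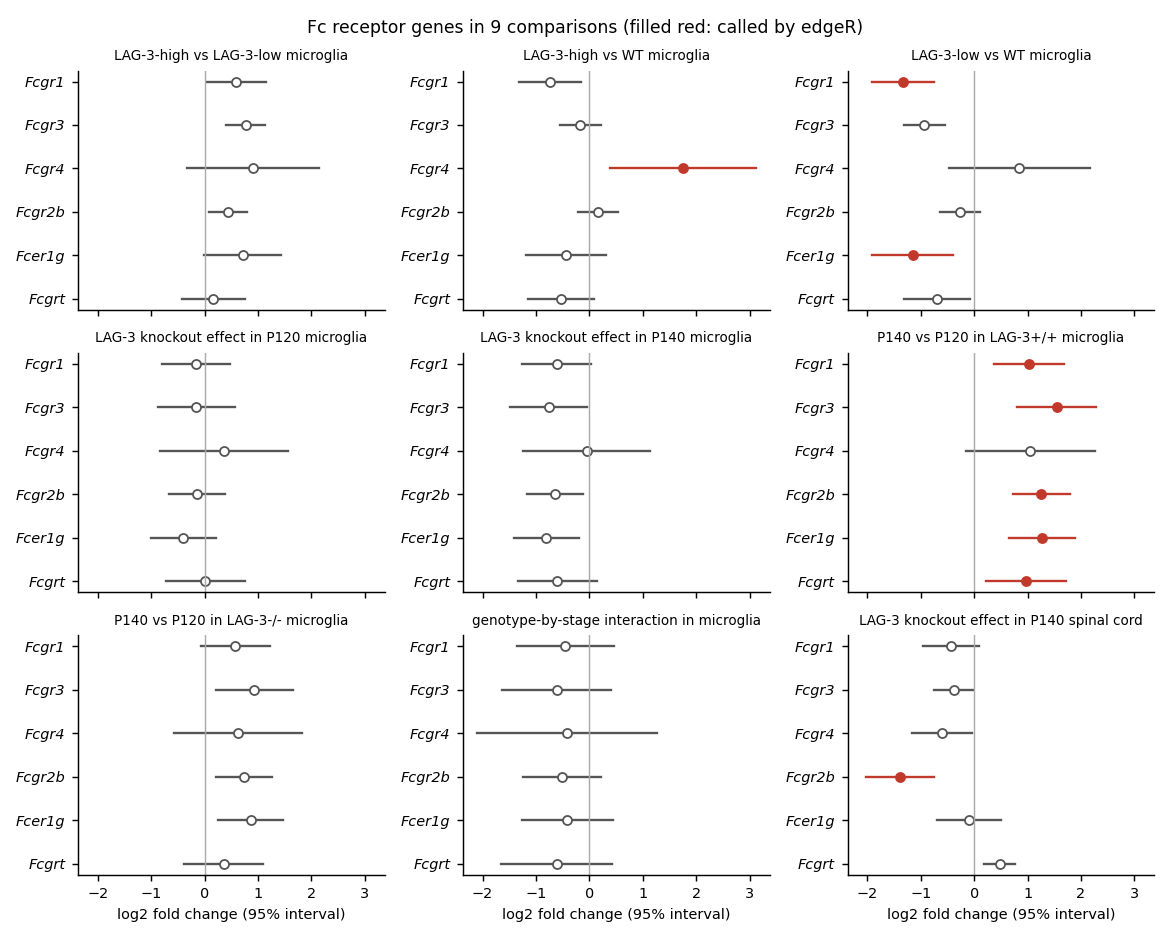
Log2 fold change with its 95% interval for each of the 6 genes in each of the 9 comparisons, on a shared horizontal axis; filled red points are called by edgeR at the thresholds of that comparison. Calls fall in 4 comparisons: Fcgr4 higher in LAG-3-high than in WT, Fcgr1 and Fcer1g lower in LAG-3-low than in WT, 5 genes higher at P140 in LAG-3+/+ microglia and Fcgr2b lower in LAG-3-/- spinal cord.

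In whole spinal cord, of which microglia are a small part, the inhibitory receptor differed between genotypes. Fcgr2b was at 86.5, 57.6 and 79.2 CPM in LAG-3+/+ and at 38.2, 18.7 and 28.9 CPM in LAG-3-/- cord, without overlap. It fell by 1.39 on the log2 scale (SE 0.27, 95% interval -2.03 to -0.74, edgeR adjusted p = 0.00702) and was the only one of the 6 called, against 7.52% of all genes called in either direction, 3.15% lower and 4.37% higher. The call held with each of the 6 libraries left out in turn, over a range of -1.65 to -1.15, and with each other setting tried it was also called, at -1.53 to -1.11.

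The activating receptors differed less. Fcgr3 was at 56.8, 45.3 and 64.5 CPM in LAG-3+/+ and 52.5, 36.0 and 39.4 CPM in LAG-3-/- cord (log2 -0.38, SE 0.16, edgeR adjusted p = 0.0878). Fcgr4, on 27 to 73 counts per library, was at 2.73, 1.85 and 2.34 CPM and 1.54, 1.34 and 1.70 CPM without overlap (log2 -0.60, SE 0.26, edgeR adjusted p = 0.0870). Both passed the adjusted p, as 47.1% of all genes did, but not the fold minimum. Fcgr1, at 15.5 to 22.9 and 10.1 to 19.3 CPM, did not pass (log2 -0.43, edgeR adjusted p = 0.178), and neither did Fcer1g, at 37.5 to 57.5 and 36.5 to 64.4 CPM (log2 -0.093, 95% interval -0.70 to 0.51, adjusted p = 0.805), whose sign turned with some libraries left out.

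Fcgrt went the other way. It was at 22.8, 22.4 and 24.3 CPM in LAG-3+/+ and at 35.1, 35.2 and 26.2 CPM in LAG-3-/- cord, each LAG-3-/- library being higher (log2 0.47, SE 0.13, edgeR adjusted p = 0.0138), also under the fold minimum. Groups did not overlap for 25.5% of all genes with LAG-3-/- higher and for 26.1% with LAG-3-/- lower. Differences in cord also moved with transcript length. The median log2 fold change was 0.45 for genes under 1 kb, 0.32 at 1 to 2 kb, -0.029 at 2 to 4 kb and -0.36 over 4 kb. The median transcript is 1809 bases long for Fcgrt and 3365 for Fcgr2b. With the correction for length and GC content Fcgr2b was again called lower, where 2.99% of all genes were. Fcgrt was again not called. B2m, the other chain of FcRn, was at 330 CPM on average in LAG-3-/- and 409 CPM in LAG-3+/+ cord (log2 -0.31, edgeR adjusted p = 0.236).

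Fcgr2b was a larger part of the receptor transcripts in cord than in sorted microglia, in separate tables whose libraries were made with different kits and which were not tested against each other. Of the 4 receptors per kb it made up 27.6% ± 2.14 in LAG-3+/+ and 16.0% ± 1.9 (SD, n = 3 each) in LAG-3-/- cord, with ranges of 25.9 to 30.0% and 13.8 to 17.1% that did not overlap, and between 5.18% and 11.0% in the 26 microglia libraries. The 8 microglia markers summed to 1119 to 1405 CPM in LAG-3+/+ and 808 to 1097 CPM in LAG-3-/- cord, lower in each LAG-3-/- library. As a percentage of that sum, Fcgr2b was at 5.15 to 6.28% in LAG-3+/+ and 2.32 to 3.48% in LAG-3-/- cord, Fcgr3 at 4.05 to 4.59% and 4.11 to 4.78%, Fcgr1 at 1.38 to 1.63% and 1.25 to 1.76%, and Fcgrt at 1.66 to 2.0% and 2.74 to 4.36%. Set against the markers, Fcgr2b therefore kept separate groups and Fcgr3 and Fcgr1 overlapped. For Fcgrt this scale could not give an overlap, because its CPM was higher and the marker sum lower in every LAG-3-/- library. Cord also held markers of B and plasma cells at 49.7 to 63.2 and 65.9 to 73.6 CPM, of monocytes and border macrophages at 8.43 to 12.7 and 3.70 to 12.1 CPM and of endothelium at 166 to 176 and 138 to 159 CPM (LAG-3+/+ first). Oligodendrocyte markers summed to 15978 to 17481 and 22713 to 31982 CPM and astrocyte markers to 9965 to 11720 and 6098 to 10355 CPM. All of these markers were detected in both groups, and their part in the Fcgr2b and Fcgrt differences was not tested.

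**Figure D4:**
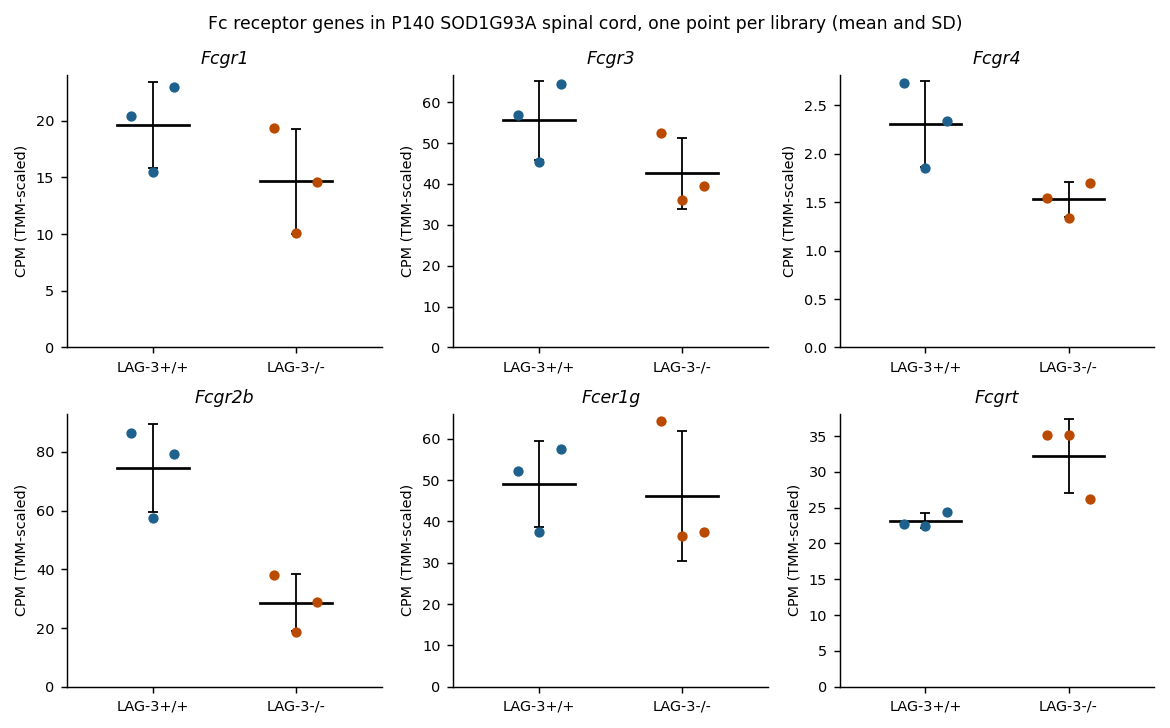
Levels of the 6 genes in CPM (TMM-scaled, linear axes from 0) in P140 SOD1G93A spinal cord with LAG-3+/+ or LAG-3-/- (n = 3 each); points are libraries, thick lines means and bars SDs. Fcgr2b and Fcgr4 are lower in every LAG-3-/- library, Fcgrt is higher in every one, and the other 3 overlap.

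**Figure D5:**
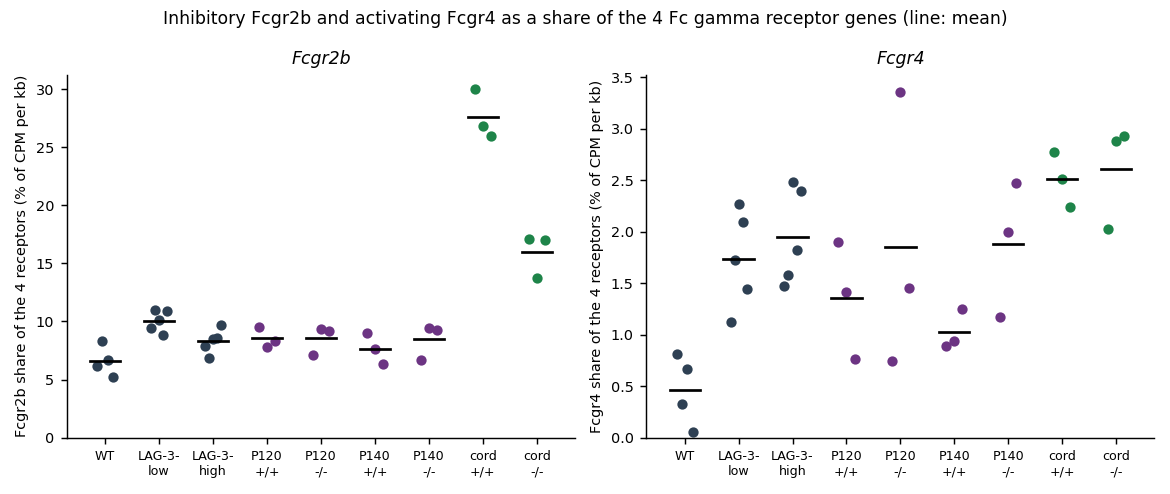
Share of Fcgr2b (left) and Fcgr4 (right) in the summed CPM per kb of the 4 Fc gamma receptors, in percent, for the 9 groups; points are libraries and lines means. Fcgr2b holds 5.18 to 11.0% in microglia and 13.8 to 30.0% in cord, and Fcgr4 holds at most 0.81% in WT microglia.

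Transcripts of the proteins downstream of the receptors moved in both directions. Of 20 genes of ITAM signalling, 19 were tested in the stage table, and from P120 to P140 in LAG-3+/+ microglia 4 were called higher and 5 lower, with a median log2 fold change of -0.24 against -0.22 for all genes. Plcg2, phospholipase C gamma, fell by 2.12 (edgeR adjusted p = 0.00497), Lat2, an adaptor, rose by 1.17 (0.0108) and Pik3cd, a PI3-kinase subunit, fell by 2.05 (0.0165). Tyrobp, the ITAM adaptor DAP12, rose by 1.22 (0.0266), while Syk, the kinase that binds phosphorylated ITAMs, fell from 61.3 to 15.6 CPM on average (log2 -1.98, 0.0301). Transcripts of the 5 that fell had median lengths of 3577.5 to 6165 bases and those of the 4 that rose 601.5 to 4153.5 bases. With the correction for length and GC content 6 were called higher and 1 lower, where 19% and 6.29% of all genes were. Plcg2 at -0.73 was still called and Syk at -0.88 was not.

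The inhibitory branch split in the same comparison. Of 10 genes, 1 was called higher and 3 lower. Inpp5d, the phosphatase SHIP1 that acts below the Fcgr2b ITIM, fell from 584 to 139 CPM on average (log2 -2.07, edgeR adjusted p = 0.00636) while Fcgr2b itself rose. Cbl and Cblb, ubiquitin ligases, fell by 1.31 (0.0238) and 5.0 (0.0303), Cblb from 12.8 to 0.415 CPM on average, and Ptpn6, the phosphatase SHP-1, rose by 0.72 (0.0452). With the length and GC correction Inpp5d remained lower at -0.77 (edgeR adjusted p = 0.0620), and 3 genes were called higher and 1 lower. Of 16 genes of phagocytic actin remodelling 7 were called higher and 6 lower, with Dock2 at -2.02 (0.00497), Arpc1b at 1.45 (0.00570) and Arpc5 at 1.42 (0.00636) having the smallest adjusted p, where 11.9% of all genes were called higher and 15.5% lower, and with the correction 10 were higher and 4 lower. B2m rose by 1.51 (0.0127), and Fcrl2, the microglial Fc receptor-like gene also called Fcrls, rose by 1.06 (0.0249) beside Fcrl1 at 2.25 (0.00613). The only immunoglobulin gene of 8 that passed the filter in this table, Ighm, rose by 0.88 (0.0352).

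At P140 the deletion gave the opposite signs for some of these genes, in libraries that the comparison of stages also used. Inpp5d was at 395 CPM on average in LAG-3-/- and 139 CPM in LAG-3+/+ microglia (log2 1.51, edgeR adjusted p = 0.0440), and 3 of 10 inhibitory genes were called higher, the others being Cbl and Cblb. Among ITAM signalling genes 2 were called higher (Plcg2, Pik3cd) and 1 lower (Lat2), and among the 16 actin genes 3 were higher (Dock2, Was, Rac1) and 3 lower. Syk (log2 1.52, adjusted p = 0.125), Tyrobp (-0.71, 0.210), Lyn (0.20, 0.586), Ptpn6 (-0.43, 0.268), B2m (-0.47, 0.421) and Fcrl2 (-0.59, 0.228) did not pass. With the correction 0 inhibitory genes were called. At P120, between stages in LAG-3-/- microglia and for the interaction, no gene of these lists was called.

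Within the SOD1G93A sort, 1 gene of each downstream list was called. Fcrl2 was at 2646 CPM on average in LAG-3-high cells and 1168 CPM in LAG-3-low cells (log2 1.18, SE 0.17, edgeR adjusted p = 0.00205) and B2m at 5065 and 2218 CPM (log2 1.19, adjusted p = 0.0580), both called higher. In the ITAM, inhibitory and actin lists the called gene was lower: Vav3, an exchange factor, the adaptor Dok3 and Rac2, the haematopoietic Rac. Neutrophil markers were lower in LAG-3-high libraries too, at 1.41 to 7.14 CPM against 22071 to 63230 CPM in LAG-3-low libraries. Their part in the differences of these downstream genes between the sorts, or from WT, was not tested. Tyrobp was higher in every LAG-3-high library without passing (log2 1.20, adjusted p = 0.121), and Syk was lower in every one, as 6.52% of all genes were, with log2 -0.79 (0.0491) under the fold minimum. Against WT, Fcrl2 was higher in LAG-3-high (log2 1.74, adjusted p = 3.53e-05), and Syk and Fgr, a Src family kinase, were called higher in LAG-3-low cells, Syk at 1.13 (0.00409). LAG-3-low against WT had 4 calls upward and 0 downward among the 20 ITAM genes, where 10.9% and 11% of all genes were called. LAG-3-high against WT had 1 upward and 2 downward, where 12.1% and 14.9% of all genes were. With the length and GC correction these counts became 2 higher and 7 lower, and 1 higher and 8 lower. Of all genes 7.98% were then higher and 27.6% lower in LAG-3-low, and 8.21% higher and 25.9% lower in LAG-3-high. Syk in LAG-3-low turned to -0.39 (edgeR adjusted p = 0.317). Of the 16 actin genes 3 were called higher in each sort against WT, and of the 10 inhibitory genes 1 was lower in LAG-3-low and 3 in LAG-3-high. With the correction the actin list had 1 higher and 3 lower in LAG-3-low and 1 higher and 4 lower in LAG-3-high, and the inhibitory list 4 lower in each. The median over the 20 ITAM genes was 0.052 for the high against the low sort, beside -0.024 for all genes.

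In spinal cord no gene of the 6 lists was called. Inpp5d was at 28.9 CPM on average in LAG-3-/- and 44.6 CPM in LAG-3+/+ cord (log2 -0.63, edgeR adjusted p = 0.00840) and Lyn at 21.7 and 31.9 CPM (-0.56, 0.0264), both past the adjusted p and under the fold minimum. Syk (-0.28, adjusted p = 0.205), Ptpn6 (-0.34, 0.195) and Tyrobp (0.010, 0.974) did not pass, and Fcrl2 had -0.52 (0.0528). The ITAM list had a median of -0.31 and the inhibitory list one of -0.25, against 0.0022 for all genes tested.

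The genes with the levels most like each member, by the smaller of the Pearson correlations of log2 CPM over the 14 sorting and the 12 stage libraries, are given as a description, since libraries of a table share depth and RNA composition. For Fcer1g they were Uqcr11, Ndufa7 and Rps14, with correlations of at least 0.974 in both tables. For Fcgr3 they were Tmem59, Ncbp2as2 and Polr2e (at least 0.920), for Fcgr1 Polr2e, the microglia marker Aif1 and Ormdl2 (at least 0.922) and for Fcgr2b Clta, the clathrin light chain, C1galt1c1 and Rpl10a (at least 0.860). Fcgr4 was nearest to Aopep, Mrpl39 and Sar1a (at least 0.849) and Fcgrt to Psmd9, Olfml3 and Nubp2 (at least 0.813). Among the members themselves, Fcgr2b and Fcer1g correlated at 0.97 and Fcgr3 and Fcer1g at 0.96 over the 12 stage libraries, while Fcgr4 and Fcgr1 correlated at 0.71 there and at -0.34 over the 14 sorting libraries.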

How the data were processed

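RNA-seq was analysed from 14 sorted microglia, 12 stage microglia and 6 spinal cord libraries. Per the labels, the authors trimmed reads with Trim Galore 0.6.7, quantified them with Salmon 1.9.0 against GRCm39 and worked in R 4.2.1, and the deposited tables hold tximport's estimated counts per Ensembl gene, neither whole nor normalized. Microglia libraries were amplified with a SMART-seq HT kit, and the common dispersion was 0.691 and 0.603 in the microglia tables and 0.0247 in cord.

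Values were rounded and fitted per table in edgeR 4.0.16 (R 4.3.3) by the robust quasi-likelihood test, after TMM scaling and filterByExpr (10 counts, 15 in total), with Benjamini-Hochberg adjustment over 16508, 18669 and 17702 genes. A call needed an adjusted p below 0.1 and a log2 fold change beyond 1 in either direction for LAG-3-high against LAG-3-low and for cord, following the study's methods. The same thresholds were applied here to the comparisons with WT, and an adjusted p below 0.1 alone to the stage table, for which the methods give none. Libraries were grouped by their labels, and none was left out of the main results. Names, positions and transcript lengths are those of GENCODE vM39, from which 71, 66 and 71 identifiers were absent. No 2 libraries of a group agreed within sampling noise. The labels do not say whether libraries came from separate animals, so p-values measure the spread between these libraries. For cord, the study's figure legend gives n beside the mice of each genotype. Nearest genes needed a mean of at least 10 CPM in both microglia tables (prior count 2).

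The text names the 6 members, the 3 called genes with the smallest adjusted p per list and comparison, 7 pathway genes in the comparisons and the 3 genes most like each member. Members, gene lists and tests were chosen with earlier results of these data known. Alternatives were DESeq2 1.42.0, RLE factors, library totals, other filters and thresholds, sex as a covariate, a replicate block, fits limited to the compared groups, each library left out in turn, the longest transcript as the length, Spearman correlation and, chosen after the data were seen, offsets for transcript length and GC content. The fits were tested on simulated data.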

Additional observations from a re-analysis of the deposited data

How the results depend on the processing

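With RLE factors, a filter on mean counts or sex as a covariate, 0 of the 6 genes changed their call, other than Fcer1g at P140 below. Under alternatives other than leaving out a library, 81 counts of members called stayed within 1.5 times the value reported and 16 did not. Without a minimum fold change, 1 gene was called of LAG-3-high against LAG-3-low, 2 between LAG-3-high and WT and 4 in cord. Between LAG-3-high and WT the count was 0 with library totals, an adjusted p under 0.05 or only the groups compared, and 2 with the length and GC correction; Fcgr2b reversed to -0.13 with totals and -0.81 with the correction. Between LAG-3-low and WT it was 1 with totals, no filter, the replicate block or only the groups compared, and 5 with the correction. For LAG-3-/- at P140 it was 1 with RLE (Fcer1g), 1 with the correction (Fcgr2b) and 3 with DESeq2, and Fcgr4 reversed to 0.27 with totals. Between stages in LAG-3+/+ it was 3 with totals. Fcgrt reversed to -0.22 with totals of LAG-3-high against LAG-3-low and to -0.012 with the block at P120. The cause was not tested.

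Leaving out 1 library gave 0 to 1 genes called between LAG-3-high and WT, 1 to 3 between LAG-3-low and WT, 0 to 5 for LAG-3-/- at P140, 3 to 5 between stages in LAG-3+/+ and 0 to 1 for the interaction. Values that changed sign ranged, over the libraries left out, from -0.70 to 0.16 for Fcer1g of LAG-3-high against WT (positive without WT 4), from -0.41 to 0.051 for Fcer1g in cord (positive without LAG-3+/+ 3, LAG-3-/- 2 or LAG-3-/- 3), from -0.17 to 0.20 for Fcgrt at P120 (negative without LAG-3+/+ 1 or 3 or LAG-3-/- 1 or 3), from -0.071 to 0.56 for Fcgrt between stages in LAG-3-/- (negative without P140 1), from -0.57 to 0.75 for Fcgr4 at P120 (negative without LAG-3-/- 2, which also turned the interaction), from -0.25 to 0.18 for Fcgr4 at P140 (positive without LAG-3+/+ 3 or LAG-3-/- 3) and from -0.81 to 0.52 for Fcgr4 in the interaction. Where 2 libraries of a group remained, the spread was pooled over groups.

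Over all genes, calls of LAG-3-high against LAG-3-low numbered 576, 988 with DESeq2, 1333 with the replicate block and 1450 with only the groups compared; for LAG-3-/- at P140 they numbered 1908, 4281, 814 and 0, at P120 2, 134, 1 and 31, and for the interaction 32, 1301 and 0 with the block. Between stages in LAG-3+/+, 2219 genes were higher and 2899 lower, 3547 and 1173 with the correction and 971 and 4120 with totals. Of 34 pairs of libraries with the same number, 0 correlated over 0.1 in their deviations and 23 of 68 checks were best with the own number. These pooled counts cannot decide on pairing. Apart from LAG-3-high with LAG-3-low, the groups set side by side differ in genotype or age and cannot share a mouse. For LAG-3-high with LAG-3-low 6 of 10 were best with the own number, each among 5 libraries (correlations up to 0.067). The mean correlation was 0.032 for pairs with the same number and -0.0081 for other pairs, and sex matched number by number. A shared mouse cannot be told from these values, and the main fit took these sorts as unpaired. With the replicate block Fcgrt between stages in LAG-3+/+ had an edgeR adjusted p of 0.111 and Fcer1g in LAG-3-low against WT 0.162. With the longest transcript the Fcgr2b share was 8.43 to 12.5% in microglia groups and 34.8% and 21.0% in cord. With Spearman correlation 1 of the 3 nearest genes was shared for Fcgr1 and Fcgr2b and 0 for the others.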
